A study of Danio rerio with 6 samples.

Results

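Stat proteins are transcription factors that wait in the cytoplasm until Jak kinases, bound to cytokine or interferon receptors, phosphorylate them. They then enter the nucleus, where Stat3 serves mainly Il6-type signals, and Socs proteins, themselves induced by Stats, shut the receptors down. Interferon target genes such as isg15, mxa and rsad2 encode antiviral effectors, and irf7 encodes a factor that amplifies interferon production. In zebrafish, stat3 is also known for its part in cell movements of gastrulation, the process that follows the stage measured here.

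The 6 genes described are stat3, socs3a, irf7, isg15, mxa and rsad2. A target is the set of probes that the array carries for one transcript, and 10 of the 38489 targets on the array were matched to these genes. They were matched by the name in the array design, current or older, and where the name was blank by a map marker on the target's own chromosome, or on the one chromosome its markers named where the target had none. Every one of the 6 genes had a target: 3 for irf7, 2 each for stat3 and mxa, and 1 each for socs3a, isg15 and rsad2. Targets of one gene cover the same transcript or overlapping ones and are not independent measurements of it. The genes were chosen by function, with earlier results of these data known.

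Total RNA came from zebrafish embryos of the sphere stage, when the embryo is a blastula and its own genome has just become active, and was hybridised to 1-colour arrays with Cy3. In the 3 arrays of the first group the embryos had been injected with nanog-like-MO1, a morpholino against the maternal homeobox gene now called nanog, and the labels give a defect of gastrulation. In the 3 arrays of the second group they had been injected with a control morpholino, and the labels give a normal phenotype. Both groups thus carried an injected antisense oligonucleotide, and uninjected embryos were not analysed here. The sample labels call the arrays biological replicates from separate cultures, and the design text speaks of separate embryos. They name no strain, dose or number of embryos.

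Median raw intensity ran from 408 to 529 over the 6 arrays, and their number limits the precision. The nanog transcript itself had log2 levels of 14.93, 14.92 and 14.82 in nanog-like-MO1 embryos, against 14.90, 14.97 and 14.85 in control-MO embryos, which checks nothing, since a morpholino need not lower its transcript. Of the markers of the stage, all 4 early zygotic genes (sox3, vox, tbx16 and blf), all 3 measured maternal genes and all 5 enveloping layer genes lay above the median of target means, and the 4 early zygotic genes were called lower in nanog-like-MO1 embryos. Of both yolk syncytial layer markers, mxtx2 was called lower (log2 fold change -2.69, adjusted p = 0.0447 by limma) and slc26a1, under the 25th percentile, had -0.53. Their summed linear level was 471 to 1082 in nanog-like-MO1 embryos and 3055 to 5039 in control-MO embryos. Of 6 measured myeloid and macrophage markers 5 lay below that median. The summed linear level of these 6 was 1094 to 2431 in nanog-like-MO1 embryos and 1236 to 2028 in control-MO embryos, and none differed by the test, with log2 fold changes between -0.60 and 0.36. Of markers of other cell types of later development, 3 of 5 lymphoid, 4 of 5 erythroid, 3 of 3 muscle and 2 of 2 neural markers lay below the median of target means. Of the liver markers only 1 of 3 did, so a level above that median need not mark a cell type. None of these was called. The part of these cell types in the results was not tested. By the array numbers in the labels, nanog-like-MO1 replicate 3 falls in the same range as the 3 control-MO arrays, and the other 2 nanog-like-MO1 arrays fall outside it.

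At the sphere stage the antiviral genes mxa, isg15 and rsad2 and the inhibitor gene socs3a had higher mean levels after nanog-like-MO1, by 1.30-fold to 1.70-fold, but none of them passed the test over all targets. The name of the isg15 target is uncertain, and both mxa targets were matched only by a map marker. The genes stat3 and irf7 lay within 1.18-fold of control. Levels are log2 normalized intensities, fold changes are nanog-like-MO1 over control MO, and p-values come from limma, adjusted by Benjamini-Hochberg across the 38489 targets and called under 0.05. Of the 10 targets 0 rose and 0 fell by that test, which called 0.65% of all targets (0.26% as higher, 0.39% as lower). Before adjustment, at p under 0.05, 3 of the 10 were higher (socs3a and both mxa targets) and 0 lower, where 5.3% of all targets were higher and 5.03% lower, 10.3% in either direction. The nanog-like-MO1 arrays all lay above the control-MO arrays on the same 3 targets, and all below them on 0 of the 10. Over all targets these shares were 7.36% above and 7.97% below. The median log2 fold change was 0.187 over the 10 targets and -0.0122 over all targets. Through the brightest target of each of the 6 genes, 2 were higher (socs3a and mxa) and 0 lower at the unadjusted threshold. Over all 12230 named genes 5.28% were higher and 5.69% lower. The median of the 6 was 0.439, against -0.0232 for all named genes. Because whole embryos were measured, more cells with a transcript and more of the transcript per cell cannot be told apart.

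**Figure D1:**
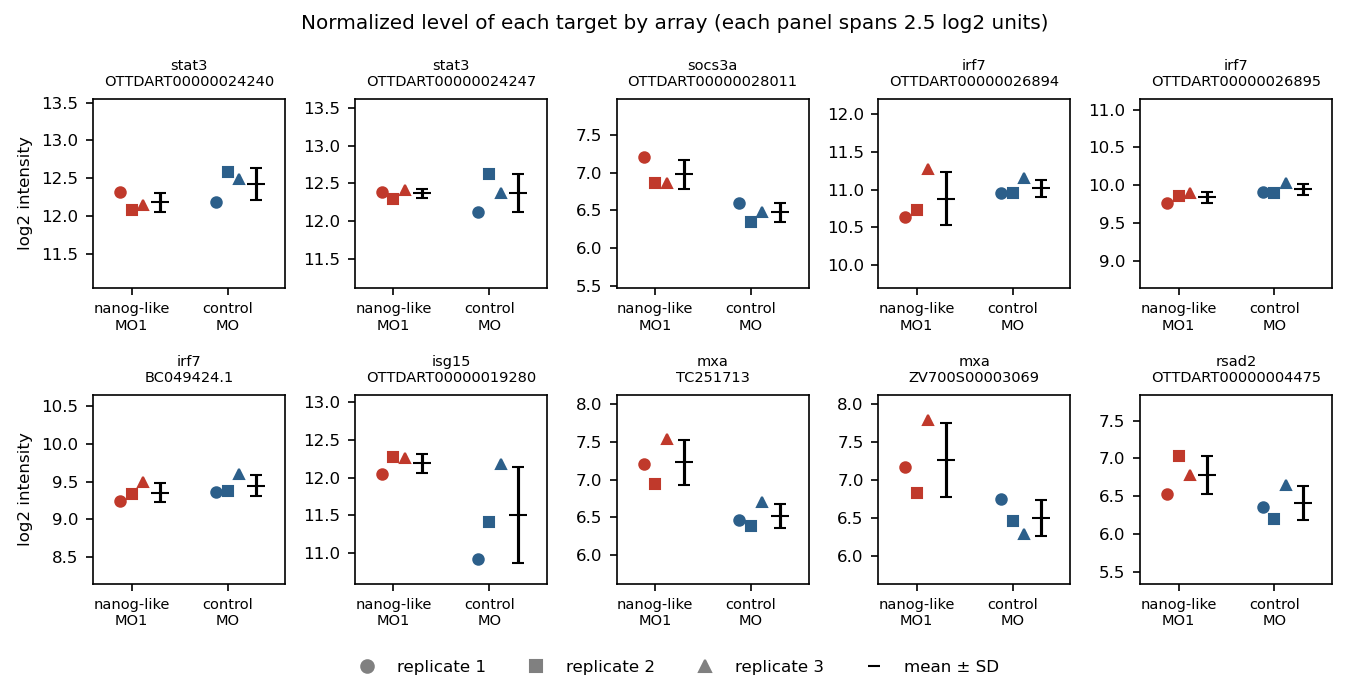
Normalized log2 intensity (vertical axis) of the 10 targets on each array, with nanog-like MO1 at the left and control MO at the right of each panel, symbols for replicates and black bars for mean ± SD (n = 3). The arrays of socs3a and of both mxa targets separate by group, while those of stat3, irf7, isg15 and rsad2 overlap.

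The stat3 gene, the Il6-type branch, was bright on the arrays and gave no call. Its targets OTTDART00000024247 and OTTDART00000024240 both span chromosome 3 from about the same start, 9034018 and 9033512, and end at 9110543 and 9110582 on assembly Zv7, the build whose scaffold names the array design uses. Whether the probes lie in coding or untranslated sequence was not analysed here. Log2 levels of OTTDART00000024247 were 12.39, 12.29 and 12.42 in nanog-like-MO1 embryos, against 12.12, 12.62 and 12.38 in control-MO embryos. The nanog-like-MO1 arrays lay inside the span of the control-MO arrays. Its log2 fold change of -0.0033 had a 95% interval of -0.36 to 0.35 (limma, adjusted p = 0.999). That of OTTDART00000024240 was -0.24 (95% interval -0.58 to 0.11, adjusted p = 0.67), with levels of 12.32, 12.08 and 12.14 in nanog-like-MO1 embryos, against 12.18, 12.58 and 12.49 in control-MO embryos, which overlap. The sign of OTTDART00000024247 turned with the arrays centred on reference genes, with array number range as a term, and without control-MO or nanog-like-MO1 replicate 2. With the reference genes it was 0.040, where the median of all targets was 0.0674. A further 2 targets with a blank name carry the stat3 marker but lie on other chromosomes, 6 and 18, and were not counted. Their log2 fold changes were -0.13 and -0.25. Both counted stat3 targets share a UniGene cluster, a grouping of sequences by transcript, with an unnamed target whose human match is FYN. The log2 fold change of that target was 0.0069.

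Among inhibitors, socs3a encodes a Socs protein that blocks Jak kinases bound to Il6-type receptors and is itself a known Stat3 target. Its target OTTDART00000028011 lies on chromosome 3 from 38784877 to 38787701. Log2 levels were 7.20, 6.86 and 6.87 in nanog-like-MO1 embryos, against 6.60, 6.34 and 6.48 in control-MO embryos. The groups did not overlap, and the gap between the lowest nanog-like-MO1 array and the highest control-MO array was 0.26. Raw intensities, not scaled between arrays, overlapped, with 135 in nanog-like-MO1 replicate 2 against 140 and 144 in control-MO replicates 1 and 3. The log2 fold change of 0.50 (SE 0.14, 95% interval 0.17 to 0.83) did not pass the test (limma, adjusted p = 0.274). The target was dim, with 24.7% of targets dimmer, and in the authors' deposited table, made by RMA and tested with limma on log2 values, its log2 fold change was 0.65 (adjusted p = 0.46). That test called 0.959% of all targets.

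The interferon regulatory factor gene irf7 has 3 targets, OTTDART00000026894 and OTTDART00000026895 on chromosome 25, starting at 16476361 and 16476378 and both ending at 16480527, and BC049424.1 with no position. BC049424.1 was matched only by a map marker. Log2 levels of OTTDART00000026894, the brightest, were 10.64, 10.73 and 11.28 in nanog-like-MO1 embryos, against 10.95, 10.95 and 11.15 in control-MO embryos. Here nanog-like-MO1 replicate 3 was the highest of all 6 arrays and the other 2 the lowest. The log2 fold changes of the 3 targets were -0.14, -0.10 and -0.093, with 95% intervals that together ran from -0.59 to 0.31 and adjusted p from 0.82 to 0.89 (limma). With array number range as a term, which leaves nanog-like-MO1 replicate 3 to carry the difference, OTTDART00000026894 had 0.26 and BC049424.1 had 0.042. Centring on reference genes turned OTTDART00000026895 and BC049424.1 to 0.012 and 0.041. The same centring took the median of all targets from -0.0122 to 0.0674. In the authors' table all nanog-like-MO1 arrays lay below the control-MO arrays on OTTDART00000026895. Its intensities there were 448, 488 and 479, against 518, 533 and 561 in control-MO embryos, a log2 fold change of -0.19 (limma, adjusted p = 0.747). The groups of the other irf7 targets overlapped in that table.

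**Figure D2:**
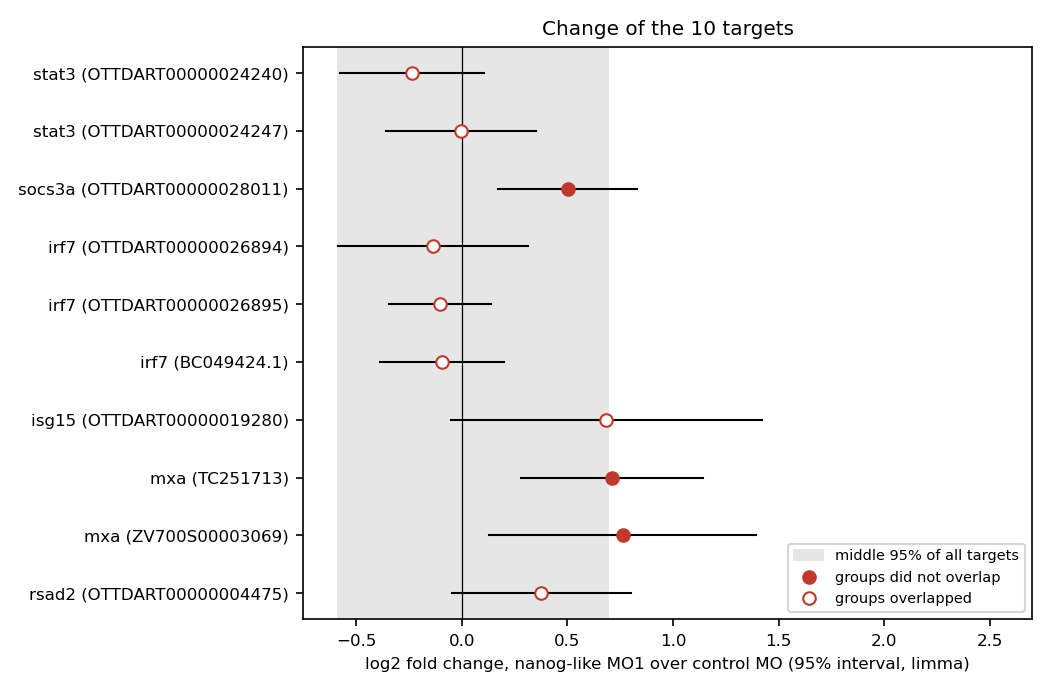
Log2 fold change of the 10 targets (points, nanog-like MO1 over control MO) with 95% intervals from limma. Filled points mark targets whose groups did not overlap, and the grey band holds the middle 95% of all targets, from -0.59 to 0.69. Of the 10, only the mxa targets lie beyond the band.

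Among the antiviral effector genes, isg15 encodes a ubiquitin-like protein that is attached to other proteins after interferon. Its target OTTDART00000019280, on chromosome 5 from 12432662 to 12433883, is described in the design as a ubiquitin family protein, but its human match there is MPP1, a membrane scaffold protein. The design also lists a UniGene cluster for it, a grouping of sequences by transcript, that holds 2 targets with an MPP1 match, whose log2 fold changes were -0.05 and -0.48. The isg15 target was matched through an older symbol, and its name is uncertain. Log2 levels of isg15 were 12.04, 12.27 and 12.25 in nanog-like-MO1 embryos, against 10.93, 11.41 and 12.18 in control-MO embryos. The nanog-like-MO1 arrays lay close together, and control-MO replicate 3 lay among them. Group means were 12.19 ± 0.13 in nanog-like-MO1 and 11.51 ± 0.63 in control-MO embryos (SD, n = 3 each), and the log2 fold change of 0.68 (SE 0.31, 95% interval -0.05 to 1.42) did not pass (limma, adjusted p = 0.526). Without control-MO replicate 1 it was 0.39 and without control-MO replicate 3 it was 1.02.

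The gene mxa encodes a dynamin-like GTPase that interferon induces and that acts against viruses. Its 2 targets both lie on chromosome 1, TC251713 with 11 probes from 5640711 to 5648259 and ZV700S00003069 with 2 probes from 5640756 to 5648262. The array design leaves the name of both blank, and they were matched to mxa only by a map marker. Log2 levels of TC251713 were 7.20, 6.94 and 7.54 in nanog-like-MO1 embryos, against 6.47, 6.38 and 6.70 in control-MO embryos. Those of ZV700S00003069 were 7.17, 6.82 and 7.79 in nanog-like-MO1 embryos, against 6.75, 6.46 and 6.28 in control-MO embryos. On both targets all nanog-like-MO1 arrays lay above all control-MO arrays after normalization. Within the nanog-like-MO1 group replicate 3 was the highest and replicate 2 the lowest. Median raw intensity of the arrays had the same order, with 529, 474 and 408 in replicates 3, 1 and 2. Whether the 2 orders are linked was not tested. The control-MO arrays were ordered differently on the 2 targets, with replicate 3 the highest for TC251713 but the lowest for ZV700S00003069. Both targets were dim, with 28.1% and 28.2% of targets dimmer. Raw intensities, not scaled between arrays, overlapped. For TC251713 nanog-like-MO1 replicate 2 had 141, against 157 in control-MO replicate 3. For ZV700S00003069 it had 132, against 151 in control-MO replicate 1 and 133 in control-MO replicate 3. The log2 fold changes were 0.71 (SE 0.18, 95% interval 0.28 to 1.14, adjusted p = 0.236 by limma) for TC251713 and 0.76 (SE 0.26, 95% interval 0.13 to 1.39, adjusted p = 0.382) for ZV700S00003069.

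The size of the mxa difference varied with the processing. The log2 fold change of TC251713 was 0.51 without background correction and 1.01 with a smaller offset of 16. In the authors' table, which differs in several steps, TC251713 had intensities of 70.4, 44.4 and 91.7 in nanog-like-MO1 embryos, against 22.9, 15.5 and 28.1 in control-MO embryos, a log2 fold change of 1.61 (limma, adjusted p = 0.0825). In that table the 3.06-fold difference was the largest of the 10 targets, and it still did not pass. Related Mx genes can share sequence, so that probes may read more than one of them. The other 6 Mx genes on the array, mxb to mxg, had log2 fold changes between -0.19 and 0.15, with 0 at an unadjusted p under 0.05. All but mxc lay under the 25th percentile of target means, with 6.2% to 14.6% of targets dimmer, where a difference may not show. These were brought together after their values were seen. The design gives the brightest mxc target a match to a fructose-bisphosphatase, so its name is uncertain.

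The gene rsad2, formerly vig1, encodes viperin, an enzyme that makes a nucleotide which stops viral RNA synthesis. Its target OTTDART00000004475, on chromosome 17 from 18678343 to 18682214, had log2 levels of 6.53, 7.03 and 6.78 in nanog-like-MO1 embryos, against 6.36, 6.20 and 6.65 in control-MO embryos. The groups overlapped through nanog-like-MO1 replicate 1 and control-MO replicate 3. The log2 fold change of 0.38 (SE 0.18, 95% interval -0.05 to 0.80) did not pass (limma, adjusted p = 0.548). The target was dim, with 21.2% of targets dimmer, and in the authors' table its log2 fold change was 1.18, or 2.26-fold (limma, adjusted p = 0.371).

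No single nanog-like-MO1 array was the highest throughout. Replicate 1 was highest for socs3a, replicate 2 for isg15 and rsad2, and replicate 3 for both mxa targets and all 3 irf7 targets. Of the control-MO arrays, replicate 3 was the highest for isg15, rsad2 and irf7 and replicate 1 for socs3a. Over 15 other settings, leaving out single arrays included, the log2 fold change of mxa TC251713 ran from 0.51 to 1.61 and that of isg15 from 0.39 to 1.02. That of mxa ZV700S00003069 ran from 0.50 without nanog-like-MO1 replicate 3 to 1.29 with array number range as a term, where that replicate carries the difference. Over the 14 that kept their dim targets, socs3a ran from 0.35 to 0.74 and rsad2 from 0.25 to 1.18. All were higher in nanog-like-MO1 embryos, and none passed in any setting. A constant sign was not particular to these targets. The stat3 target OTTDART00000024240 was lower in nanog-like-MO1 embryos in all 15 settings, from -0.36 to -0.16, and did not pass in any. The settings reuse the same arrays, so a sign that stays the same over them is not independent support for a difference.

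**Figure D3:**
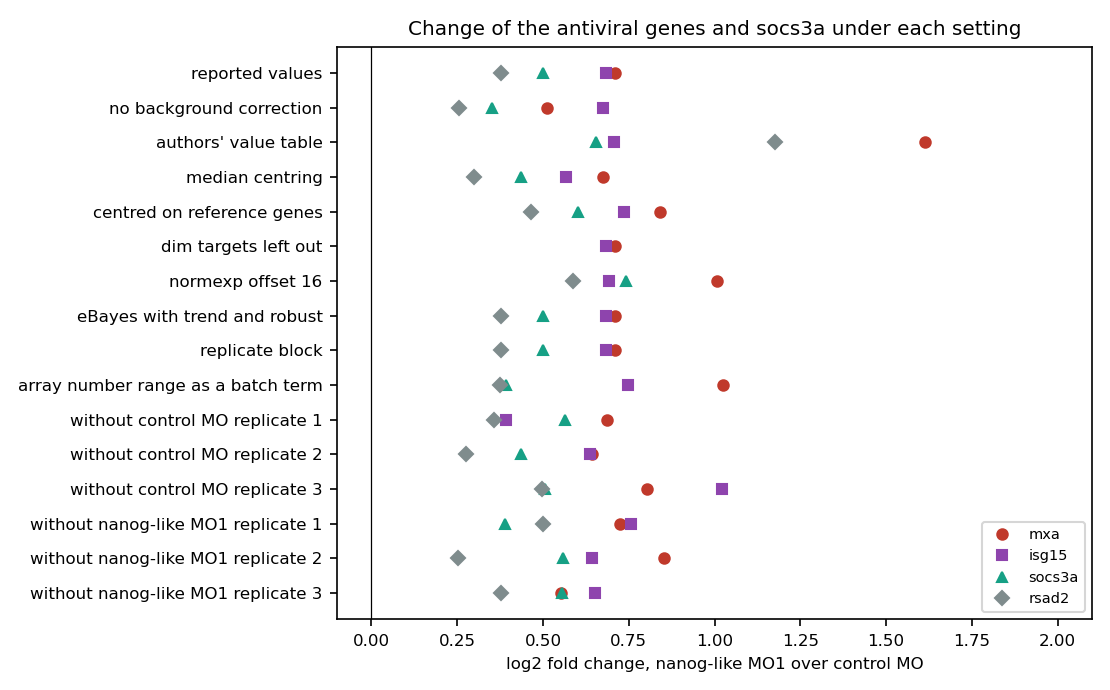
Log2 fold change (horizontal axis, nanog-like MO1 over control MO) of mxa TC251713, isg15, socs3a and rsad2 as reported and under each other setting or with one array left out. All values lie above 0, and those of mxa and rsad2 are highest in the authors' table, at 1.61 and 1.18.

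The rest of the pathway was read from 9 lists by role, 99 genes measured of 175 listed, each through its brightest target. Of these 99 genes 1 fell, 0 rose and 98 were not called, and an unadjusted p under 0.05 was reached by 4 that were higher and 6 that were lower. Over all 12230 named genes 0.736% passed, and 5.28% were higher and 5.69% lower at the unadjusted threshold. The groups did not overlap for 10 of the 99 that were higher and 12 that were lower, against 903 and 1140 of the 12230. The median log2 fold change of the 99 was -0.0169, and that of all named genes -0.0232.

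Ligand and receptor genes gave no call. Many genes of the lists were dim, with 27 of the 99 under the 25th percentile of target means and 50 under the median. Of all 12230 named genes 2219 and 5047 were. In dim genes a difference may not show. Of 10 ligand genes, 5 of them under the 25th percentile, 0 passed, with a median of -0.0425, and the type I interferon gene ifnphi1 and the interferon gamma gene ifng1 had log2 fold changes of -0.07 and -0.06. The largest differences were -0.56 (SE 0.23) for epoa, the erythropoietin gene, and 0.55 (SE 0.47) for il11a, an Il6-family cytokine gene. Of 12 receptor chain genes 0 passed, with a median of -0.0709. The interferon gamma receptor chain gene ifngr2 had levels of 9.79, 10.04 and 10.35 in nanog-like-MO1 embryos, against 9.53, 8.90 and 9.56 in control-MO embryos. These did not overlap, and the log2 fold change was 0.73 (SE 0.23, adjusted p = 0.339 by limma). The receptor chain gene crfb2 had -0.50 (SE 0.21, adjusted p = 0.484 by limma), with all nanog-like-MO1 arrays lower.

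No kinase, other Stat or inhibitor gene was called. Of 3 Jak kinase genes 0 passed: jak1, bright and tightly measured, had levels of 12.73, 12.71 and 12.64 in nanog-like-MO1 embryos, against 12.87, 12.97 and 12.93 in control-MO embryos. Its log2 fold change was -0.23 (SE 0.09, adjusted p = 0.474 by limma), and that of jak2a was -0.15. Of 3 other Stat genes 0 passed, with -0.15 for stat2, a factor of type I interferon signalling, and -0.11 for stat4. Of 11 inhibitor genes 0 passed, with a median of -0.0118. The Stat5-induced inhibitor gene cisha, matched by a map marker, had levels of 11.54, 11.61 and 11.31 in nanog-like-MO1 embryos, against 11.95, 11.91 and 11.98 in control-MO embryos. All nanog-like-MO1 arrays were lower, with a log2 fold change of -0.46 (SE 0.11, adjusted p = 0.234). The inhibitor gene socs2 had -0.60 (SE 0.64), with nanog-like-MO1 arrays spread from 7.86 to 10.56.

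Sensors, Irf factors and effectors had members in both directions. Of 11 nucleic acid sensing genes 0 passed, with a median of -0.00617, 0.47 (SE 0.15) for the kinase gene ikbke and -0.46 (SE 0.25) for the adaptor gene traf3. Of 7 other Irf genes 0 passed, with a median of 0.212, 0.40 (SE 0.24) for irf2a and 0.30 (SE 0.19) for irf8. Of 29 interferon-induced effector genes, 10 of them under the 25th percentile, 0 passed, with a median of 0.00502. The gene ifit8, of a family that binds viral RNA, had levels of 8.14, 8.60 and 8.05 in nanog-like-MO1 embryos, against 7.43, 6.98 and 7.93 in control-MO embryos, a log2 fold change of 0.82 (SE 0.27, adjusted p = 0.36 by limma). The immunoproteasome gene psmb8a had 6.48, 6.50 and 6.35 in nanog-like-MO1 embryos, against 6.85, 7.48 and 7.68 in control-MO embryos, a log2 fold change of -0.90 (SE 0.22, adjusted p = 0.229 by limma). The psmb8a target was dim, with 28.4% of targets dimmer, and its nanog-like-MO1 levels lay under the 25th percentile of target means. Both pairs of groups were apart, in opposite directions.

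Of 13 genes listed as Stat3 targets, 1 fell, 0 rose and 12 were not called, with a median of 0.00584. By the same test 67 of all 12230 named genes fell and 23 rose. The 1 of the 13 that fell was ccnd1, the cyclin D1 gene, whose only target, ZV700S00004214, was matched by a map marker. Its levels were 12.55, 12.54 and 12.94 in nanog-like-MO1 embryos, against 13.76, 13.70 and 13.88 in control-MO embryos. It fell by 1.11 on the log2 scale (SE 0.14, adjusted p = 0.0331 by limma), and it did not pass with the arrays centred on reference genes, with a replicate block or with array number range as a term, nor without control-MO replicate 2 or 3 or nanog-like-MO1 replicate 1 or 2. Which signals act on ccnd1 in these embryos was not tested. The brightest target of mycb, a Myc gene, had -0.77 (SE 0.12, adjusted p = 0.0705) with all nanog-like-MO1 arrays lower. A dimmer mycb target, OTTDART00000032230, fell by 1.16 (limma, adjusted p = 0.0259), so that counting all targets gave 2 calls in place of 1.

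**Figure D4:**
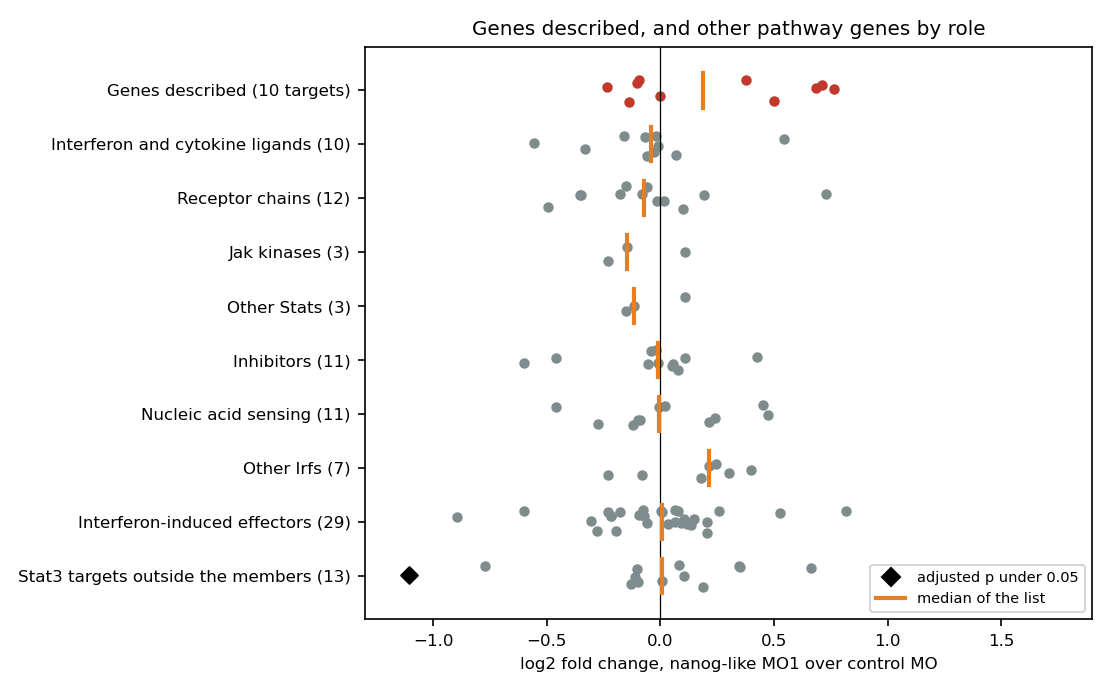
Log2 fold change (nanog-like MO1 over control MO) of the 10 targets of the genes described (top row) and of other pathway genes by role, 1 target a gene, with the number measured in brackets. Orange bars are medians and the black diamond is ccnd1, the gene that passed the test. The medians of the lists lie between -0.149 and 0.212.

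The pattern of mxa over the arrays was also set against other genes, through ZV700S00003069, the target with the largest change of the 10. Of 4719 named targets with an SD of at least 0.3 over the 6 arrays, the 5 most like it were ncam3 (Pearson r = 0.996), sh3bgrl (0.989), si:dkey-63j12.4 (0.986), cnn2 (0.985) and crtap (0.984). Their log2 fold changes lay between 0.45 and 1.31 and 0 of the 5 passed, with adjusted p of 0.30 or more (limma). A further 101 candidates also correlated above 0.9, so the likeness is not particular to these 5. The mxa target rests on 2 probes, the 6 arrays fall into 2 groups, and these correlations carry no test.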

How the data were processed

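Gene expression was measured on 1-colour arrays in 6 samples, 3 a group, with groups taken from the sample titles. Per the file headers the authors deposited 1 linear intensity per target, the mean of its probes, with the probe number and a coefficient of variation, a score over those probes. How probes were filtered was not given in the sources used here. A second table deposited by the authors holds intensities from RMA, per the submitters' processing notes, whose scaling beyond that name is unknown.

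Intensities were background corrected (normexp, offset 50), quantile normalized, taken to log2 and fitted with limma 3.58.1 in R 4.3.3 (lmFit, eBayes, group as the term, 2-sided). Standard errors and 95% intervals are moderated. The test was checked on simulated data. Targets were named through RefSeq accession, symbol, older symbol, Entrez gene number or map marker from RefSeq's genes on assembly GRCz12tu, which gave names to 17820 of 38489 targets. No coordinate was taken from that table.

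The genes and lists were chosen with earlier results of these data known. Some items of this gene set are not reported here. Besides all targets of the 6 genes described, the text names from each list up to 4 genes that passed or, where none did, the 2 with the largest absolute change, and the 5 targets most like the target with the largest change. Further genes are given where stated or beside these. Alternatives were the background correction and its offset, the normalization, the authors' table, a filter on dim targets, the moderation, a replicate block, array number range as a term, and leaving out each array. Probe and promoter sequences were not used here.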

Additional observations from a re-analysis of the deposited data

How the results depend on the processing

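Over the whole array limma called 250 targets, and leaving out 1 array at a time gave 95 to 185, with the fewest left without control-MO replicate 3 and over 1.5 times fewer without each array but control-MO replicate 1. With the range of array numbers as a term, where 1 nanog-like-MO1 array carries the difference, it called 0, while an unadjusted p under 0.05 was reached by 1906 targets that were higher and 1676 that were lower. Among the 10 targets of the genes described limma called 0 as reported and in every setting run. Before adjustment, at p under 0.05, 2 to 5 were higher and 0 to 1 lower over the settings. Of all targets tested, 1489 to 2351 were higher and 652 to 2270 lower at that threshold. The filter on dim targets left out 2 of the 10. One of the settings, map markers counted without a chromosome match, adds the stat3 targets on other chromosomes. It was chosen after seeing the data. Of the 99 pathway genes limma called 1, and 0 to 1 without single arrays. It called 0 with the arrays centred on reference genes (unadjusted p under 0.05 in 6 higher and 3 lower), 0 with the array number range term (4 and 9) and 2 when all targets of a gene were counted, a second mycb target being added. Deviations of same-numbered arrays from their group means correlated at -0.0133, -0.0968 and 0.171, and not every array correlated best with its own number. Deviations within a group of 3 are bound to each other, so these values cannot show whether the arrays were paired. With the replicate block limma called 133 targets, 0 of the 10 and 0 of the 99. At an unadjusted p under 0.05, 5 of the 99 were then higher and 5 lower, against 2113 and 1815 of all targets. For the changes of calls with a scaling or a term the cause was not tested. Leaving out arrays also leaves fewer samples. Dim targets are limited by signal over background. Of the 10 targets 2 lay under the 25th percentile of target means and 4 under the median. These 4 include socs3a and both mxa targets, the 3 whose groups did not overlap.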

Other observations

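Targets near each gene described on assembly Zv7, within 250 kb of either end, were read for shared changes, since positions were not used to choose the genes. Around mxa 11 targets had a median log2 fold change of -0.00134, with 1 of them at an unadjusted p under 0.05. Around isg15 30 targets had a median of 0.0511, with 2 at that threshold, and around rsad2 20 had -0.0193, with 4. Around socs3a 13 had -0.0979 and around stat3 4 had -0.0137, with 0 each, and around irf7 8 had 0.2, with 2. Over all targets 10.3% reached that threshold, and limma called 0 of the neighbours of any of the 6 genes after adjustment.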
